A study of Homo sapiens with 6 samples.

Results

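The genes described here encode SR proteins, heterogeneous nuclear ribonucleoproteins (hnRNPs) and the proteins of the U1 and U2 small nuclear ribonucleoproteins (snRNPs), together with the annotated copies of these genes. They were chosen by name: every row of the count table whose name starts with SRSF, HNRNP, SNRP, SF3A or SF3B and holds no hyphen, which gave 130 of 17222 gene rows. Of these, 12 were SRSF rows, 85 HNRNP rows, 22 SNRP rows and 11 SF3A or SF3B rows. The annotation lists 55 as protein coding and 75 as pseudogenes, and 37 rows were copies of a single gene, *HNRNPA1*. RNA was sequenced from H226, an established line labelled as lung squamous cell carcinoma, 48 h after transfection with an antisense oligonucleotide (ASO). An ASO is a short synthetic strand that pairs with a chosen RNA and lowers its level. ASO_LINC#3, directed against the lncRNA *SWINGN*, was compared with a control oligonucleotide, ASO_CTRL, with 3 libraries per condition, all cells being otherwise the same line.

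An mRNA precursor is spliced by the spliceosome, which is built from snRNPs that recognise the ends of each intron. SR proteins bind exons and recruit the spliceosome, whereas hnRNPs coat the precursor and often repress the use of a splice site. Most spliceosomal snRNPs carry a ring of Sm proteins around their RNA, whereas the U6 snRNP carries an Lsm ring. The SF3A and SF3B complexes hold the U2 snRNP at the branch site. Many of these genes have left processed pseudogenes in the human genome, that is, intronless copies of their mRNA.

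The members that changed most were copies of *HNRNPA1*. A read of a copy can be told from a read of the gene only where their letters differ. How the counting treated reads without such a difference is not stated. Over their whole aligned length the copies tested were from 89.0% to 99.6% identical to *HNRNPA1* transcripts. Of the 30 copies tested, 16 shared at least 1 stretch of 75 bases, the length of a read, exactly with an *HNRNPA1* transcript and 14 shared none.

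The libraries held from 3686828 to 10546786 reads on genes, the fewest in ASO_LINC replicate 3. Levels are given in CPM, the usual unit of read counts scaled to a common library size, here after TMM scaling, and errors of levels are the SD of 3 libraries. ASO_CTRL replicate 2 and ASO_LINC replicate 3 stood apart in some snRNP genes, with the values given there. Mitochondrial transcripts took from 3.01% to 3.45% of reads on genes in ASO_CTRL and from 1.85% to 2.01% in ASO_LINC. Of 8 squamous markers looked for, 2 were among the rows used here, *KRT5* from 62.6 to 117 CPM and *KRT6A* from 0 to 2.06 CPM. Of 6 simple epithelial markers looked for, 4 were among these rows, the keratins *KRT7*, *KRT8*, *KRT18* and *KRT19*, from 770 to 5260 CPM. *EPCAM* and *CDH1* were not. All 4 mesothelial markers looked for, *MSLN*, *CALB2*, *WT1* and *UPK3B*, were there, from 18.2 to 698 CPM. Some of these differed between the conditions or libraries. *CALB2* lay from 516 to 698 CPM in ASO_CTRL and from 119 to 208 CPM in ASO_LINC, and *KRT18* from 4974 to 5259 CPM in ASO_CTRL but at 2924, 2881 and 5260 CPM in ASO_LINC, so that ASO_LINC replicate 3 stood apart there too. Their part in the results on the members was not tested. Of the 9 markers of adenocarcinoma, immune cells and endothelium, only *CD68* was in the table, at 1.08 to 6.51 CPM. The level of *SWINGN* itself was not analysed here. Nothing in the labels says that the libraries came from separate cultures, so p-values measure the spread between these libraries. A lower level can reflect fewer cells that express a gene or less RNA per cell, which cannot be told apart here.

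Of the 130 members, 115 had enough reads to be tested and 7 were called, all of them lower in ASO_LINC. To be called, a gene needed an adjusted p-value below 0.01 (edgeR's quasi-likelihood test, Benjamini-Hochberg over all 14660 genes tested) and a log2 fold change beyond 0.5. The share of members called was 6.09%, against 7.54% of all genes tested, so the members were not called more often than the table as a whole. Called lower were 2.63% of all genes and called higher 4.91%, whereas the members called lower numbered 7 and those called higher 0. At an unadjusted p-value below 0.05, edgeR found 4 members higher and 39 lower, beside 17.1% of all genes higher and 15.3% lower. Neither DESeq2 nor limma-voom called a member higher, while each called 8 lower. Of all genes, DESeq2 called 1517 of 17218 and limma-voom 1213 of 14660, both directions together. At an adjusted p-value below 0.05 with any fold, 19 members were lower and 1, *SF3A1*, was higher, beside 7.78% of all genes lower and 10.3% higher. The libraries of both conditions did not overlap for 39 members lower and 8 higher, beside 17.3% and 18.7% of all genes. The median log2 fold change of the members tested was -0.20, and that of all genes was 0.00 after rounding (-0.003). The number of members called depended on single libraries, as did that of all genes. It was 2 without ASO_CTRL replicate 1, 3 without ASO_CTRL replicate 2 and 2 without ASO_CTRL replicate 3. Without ASO_LINC replicate 1 it was 2, without ASO_LINC replicate 2 it was 3 and without ASO_LINC replicate 3 it was 15. All genes called in these fits, in the same order, numbered 493, 505, 359, 425, 531 and 2616, against 1106 with every library. From 14801 to 15211 genes were tested in these fits.

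**Figure D1:**
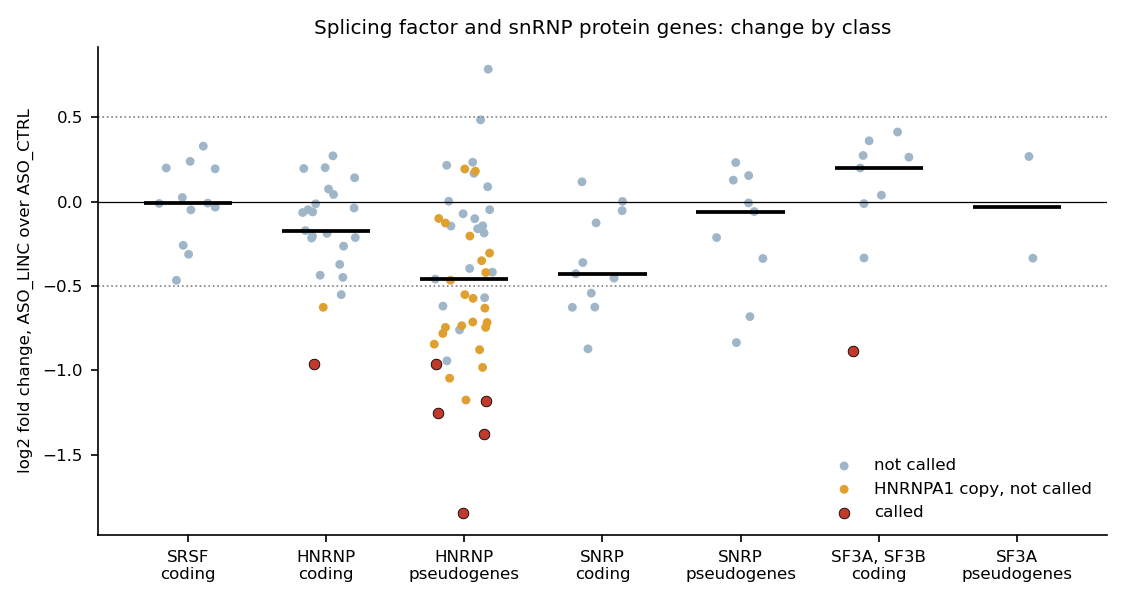
Each point is 1 member tested, with its log2 fold change of ASO_LINC over ASO_CTRL on the vertical axis and its class and annotation on the horizontal axis. Black bars are medians, dotted lines the bounds of 0.5, red points the 7 members called and orange points *HNRNPA1* copies that were not called. The called members sit among the HNRNP copies and in the SF3 class, and the medians run from -0.46 for HNRNP pseudogenes to 0.20 for coding SF3 genes.

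The SRSF class had a median log2 fold change of -0.01, the HNRNP class -0.28, the SNRP class -0.28 and the SF3 class 0.20. When only protein-coding rows were taken, these values were -0.01 over 12 genes, -0.17 over 23, -0.43 over 11 and 0.20 over 9. Over all 55 coding members the median was -0.05, with 2 called, *HNRNPA1L2* and *SF3B4*, both lower. This pooled value spans classes of both signs. At an adjusted p-value below 0.05 by edgeR with any fold, 10 coding members were lower and 1 higher, beside 7.78% and 10.3% of all genes. The libraries did not overlap for 19 coding members lower and 7 higher, beside 17.3% and 18.7% of all genes. The 60 pseudogenes tested had a median of -0.37. The scaled libraries gave from 1.27% to 1.28% of their reads to the members in ASO_CTRL and from 1.09% to 1.20% in ASO_LINC.

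**Figure D2:**
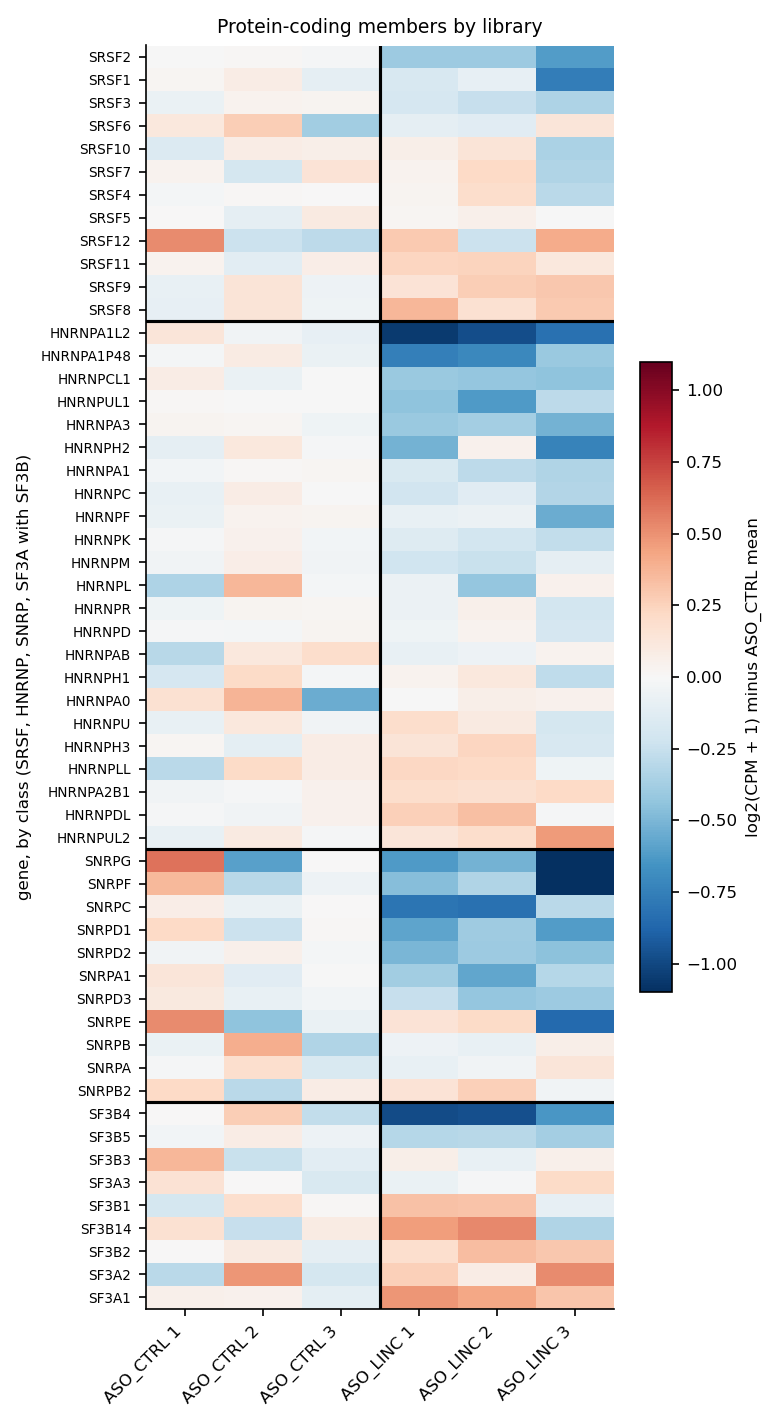
Rows are the 55 protein-coding members by class and columns the 6 libraries, and colour is log2(CPM + 1) minus the mean of the ASO_CTRL libraries, with values beyond the scale in the end colours. *HNRNPA1L2*, *SF3B4*, *SNRPC* and *SNRPD2* are blue in each ASO_LINC library, while *SF3A1* and *HNRNPA2B1* are red in each.

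*HNRNPA1* encodes an abundant hnRNP that represses splice sites and also takes part in mRNA export. It gave 650, 669 and 675 CPM in the ASO_CTRL libraries and 590, 543 and 527 CPM in the ASO_LINC libraries. The groups did not overlap, but the difference did not pass the test, with a log2 fold change of -0.26 ± 0.11 (SE) and an adjusted p of 0.128 by edgeR. The difference between *HNRNPA1* and its copies was not tested. *HNRNPA1L2*, an intronless gene annotated as coding for an hnRNP A1-like protein (chr13:53216566-53217908), gave 163, 145 and 140 CPM in ASO_CTRL and 71.3, 75.1 and 84.0 CPM in ASO_LINC. That is 149 ± 12.2 against 76.8 ± 6.55 CPM (SD, n = 3), and the log2 fold change was -0.96 ± 0.13 (SE), with an adjusted p of 0.000889 by edgeR. It was called in every one of 14 other fits, leave-one-out fits included.

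*HNRNPA1P12* (chr5:79654899-79655859) gave 118, 121 and 110 CPM in ASO_CTRL and 57.2, 50.8 and 71.8 CPM in ASO_LINC. The log2 fold change was -0.96 ± 0.15 (SE), with an adjusted p of 0.00195 by edgeR. It was called in 9 of 14 other fits and in 1 of the 6 that left out a library, the one without ASO_LINC replicate 3, and its adjusted p in the others reached 0.0164. *HNRNPA1P15* (chr9:128357948-128358907) was measured at 32.2, 32.7 and 34.7 CPM in ASO_CTRL and 12.8, 13.2 and 16.3 CPM in ASO_LINC. Every ASO_LINC library lay below 17 CPM and every ASO_CTRL library above 32 CPM, and its log2 fold change was -1.25 ± 0.16 (SE), with an adjusted p of 0.000567 by edgeR. It was the other member called in every one of 14 other fits. This copy lies within *MAPKAP1*, on the opposite strand, and *MAPKAP1* itself had a log2 fold change of -0.10 with an adjusted p of 0.603 by edgeR.

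Copies with lower levels, *HNRNPA1P42*, *HNRNPA1P59* and *HNRNPA1P64*, were also called. *HNRNPA1P42* (chr1:241082953-241083909) gave 10.5, 10.2 and 9.83 CPM in ASO_CTRL and 3.67, 4.62 and 3.25 CPM in ASO_LINC. *HNRNPA1P59* (chr1:202880940-202881857) gave 16.6, 15.7 and 17.0 CPM in ASO_CTRL and 5.88, 7.53 and 8.68 CPM in ASO_LINC. *HNRNPA1P64* (chr1:80916768-80917689) gave 3.77, 3.44 and 3.63 CPM in ASO_CTRL and 0.441, 1.20 and 1.63 CPM in ASO_LINC. In all 3 the conditions were apart, and the log2 fold changes were -1.38 ± 0.22, -1.18 ± 0.20 and -1.84 ± 0.39 (SE). The adjusted p-values by edgeR were 0.00208, 0.00277 and 0.0096. In the 6 fits that left out a library, *HNRNPA1P42* was called in 3, and *HNRNPA1P59* and *HNRNPA1P64* in 1 each, the one without ASO_LINC replicate 3. Over all other fits, *HNRNPA1P42* was called in 11 of 14, *HNRNPA1P59* in 9 of 14 and *HNRNPA1P64* in 5 of 13. *HNRNPA1P59* lies within *KLHL12*, on the opposite strand, and *KLHL12* had a log2 fold change of 0.04 with an adjusted p of 0.912 by edgeR. *HNRNPA1P42* lies within *RGS7*, also on the opposite strand, whose level was not analysed here.

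**Figure D3:**
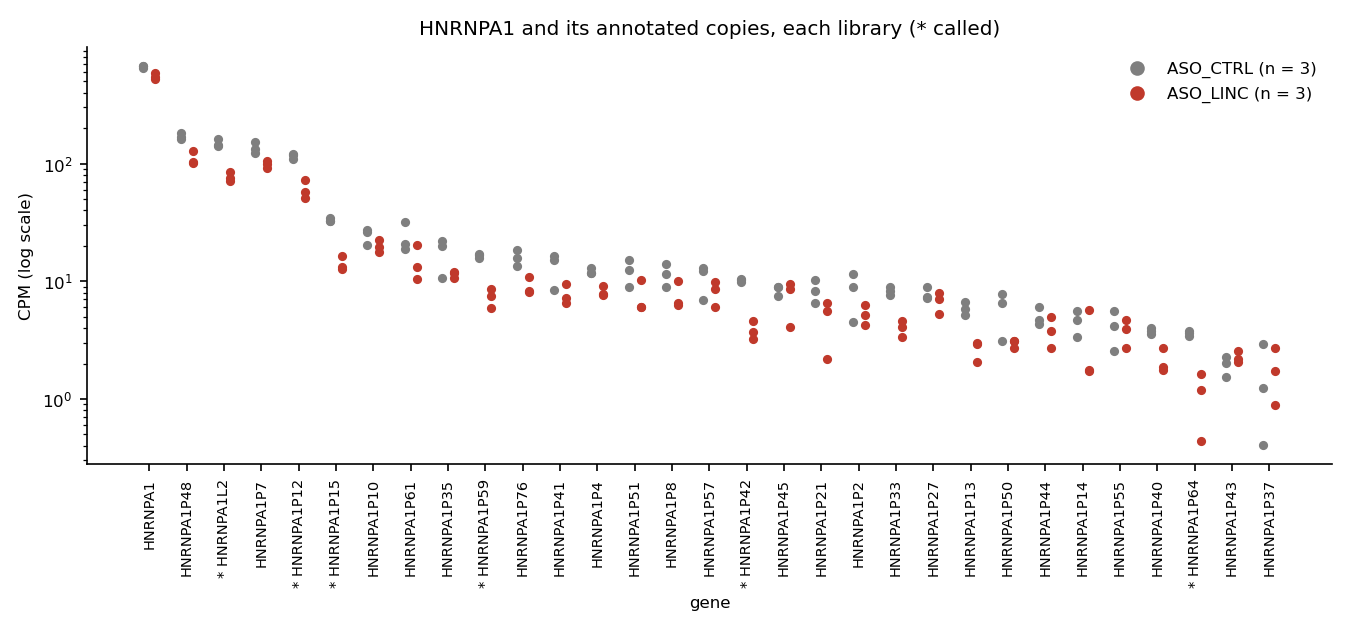
*HNRNPA1* and its 30 copies tested are ordered by their ASO_CTRL mean along the horizontal axis, with CPM on a log scale on the vertical axis, 1 point per library and an asterisk at each called copy. The ASO_LINC points lie below the ASO_CTRL points for *HNRNPA1* and for each of the 6 called copies. For 15 of the 30 copies the libraries of both conditions do not overlap, all lower in ASO_LINC, beside 17.3% of all genes lower and 18.7% higher. In *HNRNPA1P37* and *HNRNPA1P43* the ASO_LINC mean is the higher one.

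Of the 30 *HNRNPA1* copies tested, 28 had a negative log2 fold change, 6 were called lower and none higher, and the median was -0.73. Of all genes, 2.63% were called lower and 4.91% higher. At an unadjusted p-value below 0.05 edgeR found 20 copies lower and 0 higher, beside 15.3% of all genes lower and 17.1% higher. DESeq2 and limma-voom called 6 and 7 copies lower and none higher. Over all genes these tools called 1517 of 17218 and 1213 of 14660, both directions together. The copies share sequence and may share reads, so they are not 30 separate observations. The remaining HNRNP pseudogenes, copies of other genes, had a median of -0.14 over 21 tested with none called, 3 lower and 2 higher at an unadjusted p-value below 0.05 by edgeR, and none called by DESeq2 or limma-voom. Summed over all 37 rows, the copies gave 893, 838 and 843 CPM in ASO_CTRL and 510, 495 and 561 CPM in ASO_LINC. Of the reads on *HNRNPA1* and its copies together, the copies held from 55.5% to 57.9% in ASO_CTRL and from 46.4% to 51.5% in ASO_LINC. In the controls more reads were thus counted on the copies than on *HNRNPA1* itself. How reads that match both were counted is not known here. When the reads of the copies were added to *HNRNPA1* and the whole table was fitted again, a setting added after the data had been seen, the family gave 1544, 1507 and 1518 CPM in ASO_CTRL and 1100, 1038 and 1087 CPM in ASO_LINC. It then passed the test, with a log2 fold change of -0.50 ± 0.11 (SE) and an adjusted p of 0.00891 by edgeR.

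**Figure D4:**
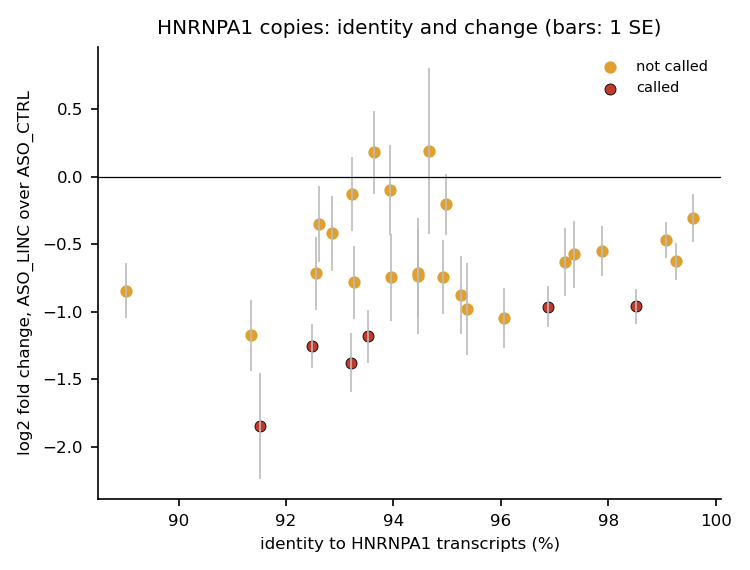
Each point is 1 of 30 *HNRNPA1* copies tested, with its identity to *HNRNPA1* transcripts in percent on the horizontal axis and its log2 fold change on the vertical axis, and bars are 1 SE. The copies called by edgeR (red) lie between 91.5% and 98.5% identity, and copies that were not called lie over the whole range.

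The 3 copies above 99% identity to *HNRNPA1* had log2 fold changes between that of *HNRNPA1*, -0.26, and the median of all 30 copies tested, -0.73. *HNRNPA1P10*, 99.6% identical, had a log2 fold change of -0.31 and an adjusted p of 0.263 by edgeR. For *HNRNPA1P48*, 99.3% identical, these were -0.63 and 0.0104, and for *HNRNPA1P7*, 99.1% identical, -0.47 and 0.0361. The next copy in order of identity, *HNRNPA1L2* at 98.5%, had a log2 fold change of -0.96, beyond that median. *HNRNPA1P48*, now named *HNRNPA1L3*, gave 167, 180 and 161 CPM in ASO_CTRL and 100, 103 and 127 CPM in ASO_LINC and so missed the threshold in edgeR, while DESeq2, limma-voom and the edgeR fit without ASO_LINC replicate 3 called it lower. Over all 30 copies, identity and log2 fold change had a Pearson correlation of 0.23 and a Spearman correlation of 0.26, a description across copies that share reads and sequence. Copies with at least 1 stretch of 75 bases in common with *HNRNPA1* had a median log2 fold change of -0.68 over 16 rows, and those without one -0.73 over 14. How reads that match several copies were placed was not tested.

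Among the other coding HNRNP genes the log2 fold changes had both signs. *HNRNPA2B1*, whose product binds pre-mRNA and takes part in RNA transport, had the highest mean count of any HNRNP row, with 1110, 1125 and 1178 CPM in ASO_CTRL and 1303, 1286 and 1322 CPM in ASO_LINC. Its libraries did not overlap, yet the log2 fold change of 0.20 ± 0.11 (SE) had an adjusted p of 0.23 by edgeR. *HNRNPDL*, an hnRNP D-like protein, gave 584, 573 and 609 CPM in ASO_CTRL and 705, 739 and 585 CPM in ASO_LINC, so the groups overlapped through ASO_LINC replicate 3. *HNRNPA3*, a close relative of hnRNP A2, was measured at 307, 306 and 291 CPM in ASO_CTRL and 226, 232 and 210 CPM in ASO_LINC, with a log2 fold change of -0.44 and an adjusted p of 0.0249 by edgeR, within the fold bound. *HNRNPUL1*, a U-like hnRNP, gave 163, 162 and 161 CPM against 119, 105 and 133 CPM, with a log2 fold change of -0.45 and an adjusted p of 0.0358 by edgeR. Without *HNRNPA1* copies, the other 21 coding HNRNP genes had a median log2 fold change of -0.07 (-0.065) and ranged from -0.55 to 0.27. Of these, 0 were called by edgeR, DESeq2 or limma-voom. At an unadjusted p-value below 0.05 by edgeR 3 were lower and 0 higher, beside 15.3% and 17.1% of all genes.

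In the SRSF class no gene was called by edgeR, DESeq2 or limma-voom. At an unadjusted p-value below 0.05 by edgeR 2 were lower and 0 higher, beside 15.3% and 17.1% of all genes. *SRSF2*, which binds exonic enhancers, had the smallest p-value. It gave 349, 354 and 346 CPM in ASO_CTRL and 266, 266 and 228 CPM in ASO_LINC, and the groups did not overlap. The log2 fold change of -0.47 ± 0.12 (SE) had an adjusted p of 0.0219 by edgeR and lay within the fold bound. *SRSF3*, the smallest SR protein, gave 338, 364 and 363 CPM against 312, 297 and 281 CPM, with a log2 fold change of -0.26 and an adjusted p of 0.147 by edgeR. *SRSF9*, an SR protein, gave 225, 262 and 229 CPM against 264, 287 and 293 CPM, with a log2 fold change of 0.24 and an adjusted p of 0.208 by edgeR. *SRSF7*, the SRSF gene with the highest mean count, gave 454, 386 and 491 CPM against 454, 515 and 352 CPM, and its groups overlapped throughout. The class thus held genes of both signs, 5 positive and 7 negative.

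The SNRP class encodes the Sm ring (*SNRPB*, *SNRPD1*, *SNRPD2*, *SNRPD3*, *SNRPE*, *SNRPF*, *SNRPG*) and the U1 and U2 proteins *SNRPA*, *SNRPC*, *SNRPA1* and *SNRPB2*. All 7 Sm ring genes had a negative log2 fold change, with a median of -0.45 and none called, although 5 were lower at an unadjusted p-value below 0.05 by edgeR, beside 15.3% of all genes. DESeq2 and limma-voom called no Sm ring gene either, while DESeq2 called 1 SNRP gene, *SNRPC*. *SNRPD2*, a ring protein and the SNRP gene with the highest mean count, gave 673, 722 and 684 CPM in ASO_CTRL and 489, 524 and 505 CPM in ASO_LINC. This is 693 ± 25.6 against 506 ± 17.7 CPM (SD, n = 3), with a log2 fold change of -0.45 ± 0.11 (SE) and an adjusted p of 0.0178 by edgeR. *SNRPD1* gave 173, 126 and 150 CPM in ASO_CTRL and 98.8, 113 and 96.2 CPM in ASO_LINC, with a log2 fold change of -0.54 and an adjusted p of 0.0289 by edgeR. *SNRPD3* lay at 209, 183 and 190 CPM against 162, 144 and 147 CPM, with a log2 fold change of -0.36 and an adjusted p of 0.0644 by edgeR. The ASO_CTRL libraries were above the ASO_LINC libraries in these 3 ring genes, whereas the libraries of *SNRPB*, at 143, 198 and 119 CPM against 144, 142 and 157 CPM, overlapped.

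*SNRPC*, a U1 protein that helps the snRNP to recognise the 5′ splice site, gave 300, 271 and 286 CPM in ASO_CTRL and 163, 161 and 232 CPM in ASO_LINC. The log2 fold change of -0.63 ± 0.16 (SE) had an adjusted p of 0.0207 by edgeR, and in the fits that left out 1 library it ranged from -0.53 to -0.82. The adjusted p was 0.000189 without ASO_LINC replicate 3, the only one of the 6 in which edgeR called it, and in the other 5 it lay from 0.0495 to 0.1003. *SNRPA1*, a U2 protein, gave 150, 125 and 136 CPM against 105, 91.6 and 110 CPM, with a log2 fold change of -0.43 and an adjusted p of 0.049 by edgeR. *SNRPA* and *SNRPB2*, proteins of U1 and U2, had log2 fold changes of 0.00 (0.001) and 0.12.

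**Figure D5:**
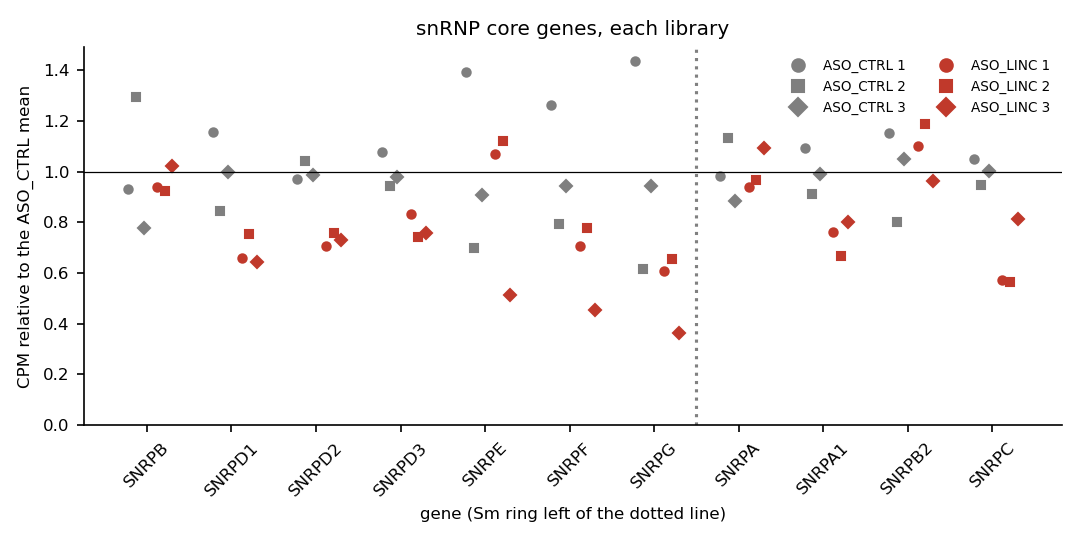
Points are the 6 libraries of each coding SNRP gene, divided by that gene's ASO_CTRL mean, with ASO_CTRL in grey, ASO_LINC in red and the replicate number by symbol. In *SNRPE*, *SNRPF* and *SNRPG*, ASO_LINC replicate 3 is the lowest point and ASO_CTRL replicate 2 the lowest control, while in *SNRPD2* the 3 red points sit together below the grey ones.

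*SNRPE*, *SNRPF* and *SNRPG*, the remaining ring genes, varied widely between libraries of 1 condition. *SNRPE* gave 34.6, 17.4 and 22.6 CPM in ASO_CTRL and 26.6, 27.9 and 12.7 CPM in ASO_LINC. *SNRPF* gave 215, 135 and 161 CPM against 120, 133 and 77.0 CPM. *SNRPG* gave 97.8, 42.0 and 64.2 CPM against 41.3, 44.5 and 24.7 CPM. With every library, *SNRPE*, *SNRPF* and *SNRPG* had log2 fold changes of -0.13, -0.63 and -0.87. Their adjusted p-values by edgeR were 0.812, 0.0708 and 0.0619, so none was called. The lowest control was replicate 2 and the lowest knockdown library replicate 3 in each. Among their pseudogenes, *SNRPFP1* lay at 226, 135 and 202 CPM in ASO_CTRL and 216, 231 and 92.5 CPM in ASO_LINC, and *SNRPEP4* lay at 27.2, 16.2 and 25.7 CPM against 30.1, 34.9 and 8.95 CPM. Over these 3 genes and their 7 copies tested, the median log2 deviation from the mean of all libraries was -0.32 in ASO_CTRL replicate 2 and -0.93 in ASO_LINC replicate 3, and from 0.19 to 0.53 in the other 4. The cause was not tested. Both of these libraries were also left out together, a setting added after the data had been seen. *SNRPF* then had a log2 fold change of -0.56 and an adjusted p of 0.00724 by edgeR. For *SNRPG* these were -0.90 and 0.00214, and for *SNRPE* -0.05 and 0.867. The libraries left out were the lowest of their condition in these same genes, so these adjusted p-values are no independent test of them. In this setting the number of members called was 23, of which 22 were lower, against 7 with every library. The calls over the whole table rose as well, to 2798 of 15128 genes tested, against 1106 of 14660 with every library.

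In the SF3 class *SF3B4*, a subunit that contacts the pre-mRNA near the branch site, was called lower. It gave 107, 130 and 88.4 CPM in ASO_CTRL and 53.8, 54.4 and 68.6 CPM in ASO_LINC. This is 109 ± 20.6 against 58.9 ± 8.37 CPM (SD, n = 3), with a log2 fold change of -0.88 ± 0.17 (SE) and an adjusted p of 0.006 by edgeR. It was called in 8 of 14 other fits. Of the 6 that left out a library, only the one without ASO_LINC replicate 3 called it. Its adjusted p by edgeR in the others of these 6 reached 0.0371. The other coding genes of the class had log2 fold changes of both signs. *SF3A1*, a subunit of SF3A, gave 94.6, 94.0 and 83.9 CPM in ASO_CTRL and 128, 122 and 113 CPM in ASO_LINC, with a log2 fold change of 0.41 ± 0.13 (SE) and an adjusted p of 0.0444 by edgeR. *SF3B2*, a further SF3B subunit, gave 174, 185 and 161 CPM against 196, 219 and 213 CPM, with a log2 fold change of 0.27 and an adjusted p of 0.147 by edgeR. *SF3B5*, a small SF3B subunit, gave 210, 227 and 206 CPM against 172, 173 and 165 CPM, with a log2 fold change of -0.33 and an adjusted p of 0.07 by edgeR. *SF3B1*, the largest SF3B subunit and recurrently mutated in blood cancers, gave 47.7, 62.3 and 55.4 CPM against 68.9, 68.5 and 51.5 CPM, so that its groups overlapped. Of the 9 coding genes of the class, 6 had a positive and 3 a negative log2 fold change.

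The 15 members below the filter on low counts held at most 34 reads in any library. They were *HNRNPA1P1* (71 reads over the 6 libraries), *HNRNPA1P20* (42), *HNRNPA1P30* (34), *HNRNPA1P39* (38), *HNRNPA1P46* (33), *HNRNPA1P52* (22), *HNRNPA1P54* (46), *HNRNPA3P13* (76), *HNRNPA3P8* (31), *HNRNPA3P9* (28), *HNRNPCP1* (22), *HNRNPDLP2* (52), *HNRNPMP1* (30), *SNRPEP5* (44) and *SNRPGP1* (45). None is a protein-coding gene, and a difference in any of them was not tested.

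Splicing genes under other names were also counted. Of 93 genes in 5 lists written by hand, 90 were in the table. Among 25 further snRNP and U2AF proteins none was called by edgeR, and DESeq2 called 1 lower. At an unadjusted p-value below 0.05 by edgeR 6 were lower and 1 higher, beside 15.3% and 17.1% of all genes. The median of this list was -0.06. *LSM3* and *LSM7*, subunits of the Lsm ring of the U6 snRNP, had log2 fold changes of -1.06 and -0.53 with adjusted p-values of 0.0235 and 0.0263 by edgeR. *LSM3* gave 59.9, 27.7 and 32.8 CPM in ASO_CTRL and 21.0, 21.1 and 15.2 CPM in ASO_LINC. *LSM7* gave 162, 162 and 130 CPM against 94.8, 103 and 116 CPM, and in both genes the groups did not overlap. Without ASO_CTRL replicate 1, the highest library of *LSM3*, its log2 fold change was -0.65 with an adjusted p of 0.0722 by edgeR.

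Among 15 SR-related proteins and SR kinases 1 was called, *CLK3*, a kinase that phosphorylates SR proteins. It was higher, with 27.3, 27.5 and 22.5 CPM in ASO_CTRL and 48.1, 42.6 and 60.5 CPM in ASO_LINC, a log2 fold change of 0.96 ± 0.17 (SE) and an adjusted p of 0.00373 by edgeR. The list had a median of 0.15. Among 13 genes of Sm ring assembly 1 was called, *DDX20*, a helicase of the SMN complex, which loads the Sm ring onto the RNA. It was lower, with 49.8, 38.2 and 46.9 CPM in ASO_CTRL and 24.3, 27.9 and 24.9 CPM in ASO_LINC, a log2 fold change of -0.81 ± 0.15 (SE) and an adjusted p of 0.00558 by edgeR. The list had a median of -0.29.

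*RBMX*, also known as hnRNP G, was called among the 23 hnRNP-like and other regulators in the table. It was lower, with 198, 184 and 185 CPM in ASO_CTRL and 136, 122 and 110 CPM in ASO_LINC, a log2 fold change of -0.62 ± 0.13 (SE) and an adjusted p of 0.00792 by edgeR. The list had a median of 0.02. Of 14 genes of the PRP19 complex and the exon junction complex 13 were tested and 1 was called, *CDC5L*, a core subunit of the PRP19 complex. It was lower, with 52.3, 47.0 and 55.9 CPM in ASO_CTRL and 30.1, 33.9 and 29.3 CPM in ASO_LINC, a log2 fold change of -0.73 ± 0.14 (SE) and an adjusted p of 0.00577 by edgeR. Across the 4 lists with a call, 1 gene was higher and 3 were lower, and the share called in each list ran from 4.35% to 7.69%, near or below the 7.54% of all genes. Leaving out a single library took each of these calls away in some fits, with *CLK3* and *DDX20* called in 2 of 6 and *RBMX* and *CDC5L* in 1 of 6.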

How the data were processed

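Per the labels and the study's methods, 75 bp single-end reads from H226 cells, transfected with 50 nM ASO, were aligned to hg19 with STAR. The authors deposited raw read counts per gene name. The methods name BJ cells for this RNA-seq, the labels H226, which was followed. The counting tool's name, annotation and strand setting are not given in the sources used here, and 4 totals of reads on no gene (24.8% to 28.1% per library) were left out. Members were the rows named by the rule, and members, gene lists and named genes were chosen with earlier results of these data known. Named were members past both thresholds, in each class the 3 smallest p-values and the 2 highest mean counts, members below the filter, and in each further list up to 3 called genes or the 2 smallest p-values. *HNRNPA3*, *HNRNPUL1*, *SNRPA1*, *SNRPD3*, *SNRPE*, *SNRPF*, *SNRPG*, *SNRPB*, *SF3B1* and other names outside this rule were chosen after their values were seen.

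In R 4.3.3, all genes passing filterByExpr were fitted with edgeR 4.0.16 (TMM scaling, quasi-likelihood F-test, no replicate block), tested on simulated data. DESeq2 1.42.0 and limma 3.58.1 (voom) were alternatives. Log2 CPM for deviations used a prior count of 2. Between libraries of the same condition the chi-square per degree of freedom was 2.62 to 14.8, above sampling noise. Each library was counted as 1 replicate, although this spread does not show that they came from separate cultures. Copies were aligned to GENCODE transcripts on GRCh37, and their sequences are not reported here. Depth limits precision most in ASO_LINC replicate 3.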

Additional observations from a re-analysis of the deposited data

How the results depend on the processing

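The direction of every member called held in each alternative that tested it, but their number did not. The replicate block gave 656 genes called against 1106. It left 5 members called, all lower and all among the 7, and took the calls of *SF3B4* and *HNRNPA1P64*. Deviations of same-numbered libraries from their group means had correlations of 0.06 (0.059), -0.15 and -0.18, and not every library correlated best with its own number. Because each mean was taken over only 3 libraries, these values cannot show whether the libraries were paired. Leaving out 1 library gave from 359 to 2616 genes called, from 2 to 15 members called, from 2 to 14 lower and from 0 to 1 higher. The medians then ranged from -0.27 to -0.17 for all members, from -0.35 to -0.23 for the HNRNP class, from -0.060 to 0.074 for the SRSF class, from 0.116 to 0.241 for the SF3 class and from -0.34 to -0.10 (-0.097) for the SNRP class. With ASO_CTRL replicate 2 and ASO_LINC replicate 3 both left out (added after seeing the data), 2798 genes and 23 members were called, 22 lower and 1 higher, and the HNRNP median was -0.23. With copies summed into their gene (also added), 2 members were called, both lower, and the medians were -0.05 (-0.048) for all members and -0.07 (-0.069) for the HNRNP class. Without a filter on low counts the HNRNP median was -0.26. At an adjusted p below 0.05 there were 2465 genes and 13 members called, all 13 lower, and with no bound on the fold 2646 genes and 20 members, 19 lower and 1 higher. *SRSF7*, at -0.01, ranged from -0.138 to 0.125 when 1 library was left out, and was positive without ASO_CTRL replicate 1 (0.006) or 3 (0.065) and without ASO_LINC replicate 3 (0.125), with library size only (0.007) and with both libraries left out (0.042). The causes were not tested. Depth limits the copies with few reads, such as *HNRNPA1P64*, most.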
